A study of Arabidopsis thaliana with 6 samples.

Results

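The tissue described here is the vascular bundle of the Arabidopsis inflorescence stem after its phloem cap had been cut out, which is represented by 2 of the 6 libraries in the series. Its members were taken from the sample labels, and both libraries were compared in 1 fit with the equal-weight mean of the 2 phloem cap (cap) libraries and the 2 pith libraries. All 6 libraries came from Col-0 plants without any transgene or treatment, kept on soil in short days and then in long days to induce flowering. Sections of the frozen second internode were dissected by laser capture microdissection (LCM), in which a laser cuts chosen areas from a tissue section. The cap and the pith were collected before the rest of the bundle, and the RNA went through 2 rounds of amplification before sequencing. In the study's picture of the cut areas, the outline of the bundle ran up to the stem surface around the cap, so that the labelled tissue can hold cells outside the bundle. The labels do not say whether replicates came from separate plants, so the p-values measure only the spread between these samples, which may be technical. In bulk RNA of this kind, fewer cells of a type and less RNA per cell cannot be told apart.

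A stem vascular bundle holds xylem towards the pith, phloem towards the surface and a cambium between them. Vessels and fibres of the xylem deposit a secondary wall after they stop growing. That wall is built from cellulose made by a dedicated set of cellulose synthases, from the hemicellulose xylan, and from lignin, which laccases and peroxidases polymerize from monolignols. A cascade of NAC and MYB transcription factors switches these genes on, and vessels complete their differentiation by digesting their own contents. The phloem cap lies outside the phloem and is rich in glucosinolates, defence compounds of the Brassicales, whereas the pith consists of large parenchyma cells in the centre of the stem.

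The libraries held 19324189 to 22571632 counted reads and between 18481 and 21428 genes with a count. Levels are given as CPM, read counts scaled to a common library size by the TMM method, listed with replicate 1 first, and they are not corrected for gene length, so they compare samples and not genes. The log2 levels correlated across genes, which are not independent replicates, with r = 0.984 between both vascular bundle libraries, 0.969 between both pith libraries and 0.944 between both phloem cap libraries. The labels were checked against markers. The fibre regulator NST3 reached 103 and 91.7 CPM in the vascular bundle, 13.1 and 29.3 in the cap and 3.58 and 3.52 in the pith. The myrosinase gene TGG2 reached 1330 and 2667 CPM in the phloem cap against 349 and 216 in the vascular bundle, and the peptide gene CLE46 reached 112 and 82.4 CPM in the pith against 5.31 and 4.56. The study picked CLE46 on these same libraries, so its level is no independent check of the labels. Genes of other cell types were present in the bundle libraries too, among them the sieve element gene SEOR1 with 155 and 109 CPM and the cuticle gene CER6 with 407 and 434 CPM, so the part each cell type had in the results cannot be told apart.

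Far more genes were called higher than lower in the vascular bundle against the mean of both tissues. In the simulated counts described below, however, the fit missed more lowered genes than raised ones. Of 18829 genes tested, 589 (3.13%) were called higher than the mean of both other tissues and 35 (0.186%) were called lower in edgeR's quasi-likelihood test, where calls were made at 0.01 after Benjamini-Hochberg adjustment and for changes of more than 2-fold. The count of higher genes was 45 or 50 with vascular bundle replicate 1 or 2 left out, 180 or 409 with pith replicate 1 or 2 left out and 501 or 634 with phloem cap replicate 1 or 2 left out. The count of lower genes was 0 without either bundle library, 2 or 16 without pith replicate 1 or 2 and 86 without phloem cap replicate 2. The median log2 fold change of the 589 genes was 3.02 against the mean of both tissues, 4.71 against the pith and 1.66 against the phloem cap, while the medians of all genes tested were 0.03, 0.05 and -0.05.

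A call against the mean did not require a difference from both tissues. Against the pith alone, 1769 genes (9.4%) were called higher and 723 (3.84%) lower, and 568 of the 589 genes were among the former. Against the phloem cap alone, 0 genes (0%) reached an adjusted p below 0.01 in edgeR, the smallest being 0.0365, although without adjustment p was under 0.05 for 1394 genes more than 2-fold higher and 1201 more than 2-fold lower. DESeq2 called 1083 genes between these tissues. Of the 589 genes, 400 were more than 2-fold above the phloem cap in the fitted value, 63 were above it by less and 126 were below it. Both vascular bundle libraries lay above all 4 other libraries in 446 of them, against 2374 of all genes tested (12.6%). The genes were called on these same libraries, so a raised share follows from the call.

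At an adjusted p below 0.05 in all 3 contrasts, 170 genes (0.903%) were more than 2-fold higher than each tissue and 9 genes (0.0478%) were lower, and 161 of the 170 were also among the 589. At the stricter threshold of 0.01 neither direction had a gene in edgeR, with 0 higher and 0 lower. Without adjustment, at p under 0.05, 744 genes exceeded each tissue and 103 lay below each, and DESeq2 called 355 and 25 at its adjusted p below 0.01, including 167 of the 170. The phloem cap replicates differed in these genes. Phloem cap replicate 2 was above replicate 1 in 425 of the 589 genes (72.2%), as against 52.3% of all genes tested, and the fit without it called 156 genes against the cap and 69 higher than each tissue, 36 of them in the set of 170.

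**Figure D1:**
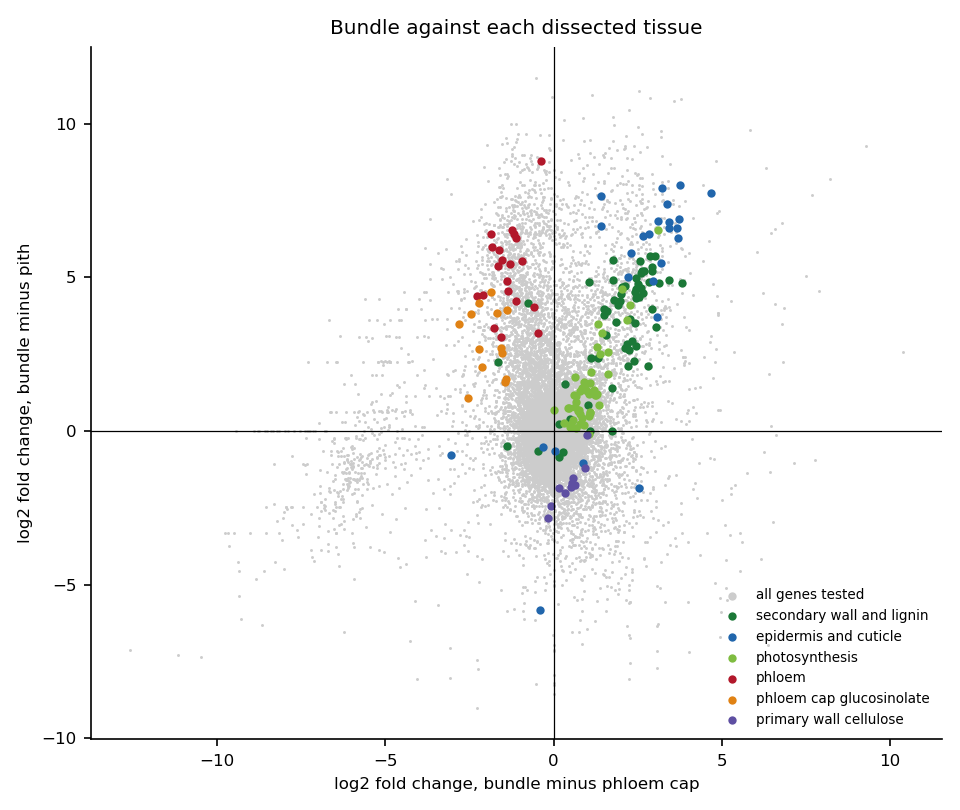
Each grey point is 1 of the 18829 genes tested, placed by its fitted log2 fold change of the vascular bundle against the phloem cap (horizontal axis) and against the pith (vertical axis), with genes of 6 groups in colour. Most of the secondary wall, lignin and cuticle genes lie at the upper right, above both tissues, whereas all 20 phloem genes lie left of the zero line.

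Genes for cellulose of the secondary wall mostly had higher levels in the bundle than in both tissues. Only CESA4 and CTL2, 2 of the 11, were higher than each at an edgeR adjusted p below 0.05, beside 0.903% of all genes. Of 11 genes tested, 7 were called higher than the mean and 0 lower, and the list median on the log2 scale was 3.40 (2.43 against the phloem cap and 4.62 against the pith), beside 3.13% called higher among all genes. Between 1 and 8 genes were called with a single library left out, and the count was 1 without either vascular bundle library or either pith library. CESA4, a catalytic subunit of the secondary wall cellulose synthase on chromosome 5, reached 1772 and 1981 CPM in the vascular bundle, 140 and 351 in the cap and 55.7 and 37.3 in the pith. Both bundle libraries exceeded every other library, and the log2 fold change against the mean was 4.13 (SE 0.38, edgeR adjusted p = 0.0017). The other subunits behaved alike. CESA7 reached 473 and 578 CPM in the bundle, with at most 139 elsewhere, and CESA8 reached 162 and 241 CPM, with at most 44.8 elsewhere. Their log2 fold changes were 3.92 (SE 0.51) and 4.27 (SE 0.52), and both were called against the mean. Against the phloem cap alone their edgeR adjusted p-values were 0.077 and 0.061. CTL2, a chitinase-like protein needed for cellulose assembly, reached 1553 and 1851 CPM in the bundle, 93.3 and 354 in the cap and 46.4 and 45.5 in the pith.

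The primary wall, which growing cells make with other cellulose synthases, gave the reverse picture in the pith. Of 10 primary wall genes, 0 were called higher or lower than the mean in edgeR, at a median of -0.61. DESeq2 called 0 higher and 2 lower, and edgeR without adjustment, at p under 0.05, gave the same counts. Against the pith, however, 7 were called lower in the bundle, beside 3.84% of all genes tested. CESA3 reached 1473 and 1752 CPM in the bundle, 975 and 1263 in the cap and 5321 and 6171 in the pith. CESA1 followed with 466 and 574, 381 and 542, and 1493 and 2298 CPM, and COB, a membrane-anchored protein of oriented cell expansion, with 130 and 143, 108 and 198, and 828 and 1107 CPM. The bundle and cap values lay close together or overlapped in these genes, and the pith libraries lay above both. The scaffold proteins on the secondary wall list, CSI1 and CSI3, which link synthases of the primary wall to microtubules, had log2 fold changes of -0.35 and -0.55 and were not called.

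**Figure D2:**
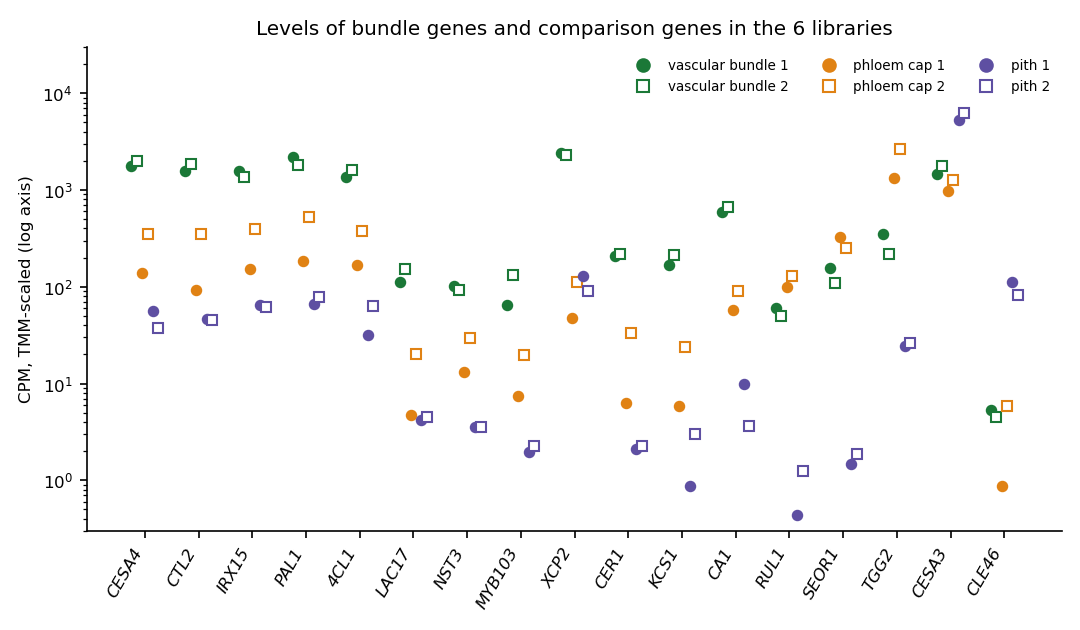
CPM (log axis) of 17 genes in the 6 libraries, with filled circles for replicate 1 and open squares for replicate 2 of each tissue. From CESA4 to CA1 both vascular bundle points lie above all others, RUL1, SEOR1 and TGG2 peak in the phloem cap, and CESA3 and CLE46 peak in the pith.

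Xylan genes called higher in the bundle act on the backbone, the reducing end and the side chains. Of 25 genes, 13 were called higher than the mean and 0 lower, at a list median of 2.63 on the log2 scale. The share called was 52%, beside 3.13% of all genes tested. Both bundle libraries were above all others in 23, beside 12.6% of all genes tested. The number called was 1 or 2 without a vascular bundle or pith library and 20 without phloem cap replicate 2. IRX9, which acts in building the xylan backbone, reached 280 and 488 CPM in the bundle, 22.6 and 65.7 in the cap and 13.3 and 13.8 in the pith, a log2 fold change of 3.97 (SE 0.42, edgeR adjusted p = 0.0022). IRX15 and IRX15L, a pair of closely related proteins needed for normal xylan, reached 1588 and 1348 CPM and 1547 and 1531 CPM in the bundle. IRX15 did not exceed 393 CPM elsewhere and IRX15L did not exceed 239 CPM, so the groups were separate for both. GAUT12, which acts on the reducing end of xylan, reached 272 and 306 CPM in the bundle, 16.4 and 55.6 in the cap and 3.42 and 7.62 in the pith. GUX1, which adds glucuronic acid side chains, reached 225 and 228, 16.6 and 46.7, and 7.05 and 8.62 CPM, and FRA8, another enzyme of the reducing end, 363 and 324, 32.5 and 66.8, and 94.2 and 63.3 CPM. In FRA8 the cap and pith values overlapped, at log2 fold changes of the bundle of 2.79 against the phloem cap and 2.12 against the pith.

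Members of some xylan families had unlike values. IRX10 had a log2 fold change of 3.45 (SE 0.49) and was called, while IRX10L had 0.45 (SE 0.22). IRX9L reached 24.6 and 28 CPM in the bundle, 25.3 and 21.4 in the cap and 21.1 and 23.3 in the pith. These values overlapped, with a log2 fold change of 0.21 (SE 0.24). IRX14 was called at 2.34 (SE 0.38), while IRX14L, at 6.74 CPM or less, had 0.93 (SE 0.41). Of the 4 RWA genes, which serve wall acetylation, RWA4 was called with 2.42, RWA1 and RWA3 had 2.5 and 2.44 without a call, and RWA2 had -0.21. These differences between relatives were not tested.

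**Figure D3:**
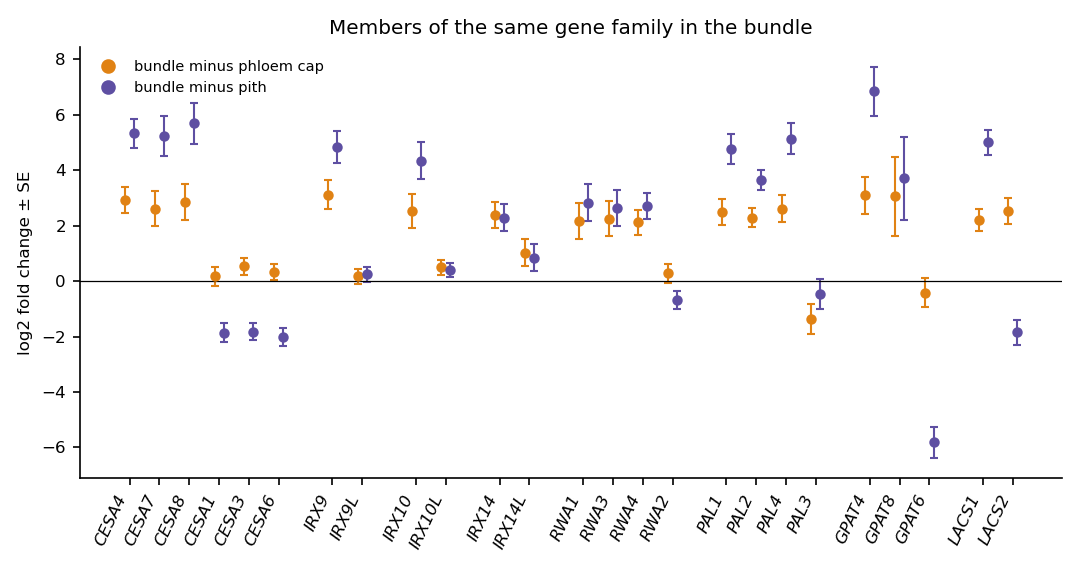
Log2 fold changes of the vascular bundle against the phloem cap and against the pith for members of 8 gene families, with bars of 1 SE from the fit over 6 libraries. The secondary wall synthases CESA4, CESA7 and CESA8 lie above zero in both contrasts, and CESA1, CESA3 and CESA6 lie below zero against the pith, while IRX9L, IRX10L and RWA2 lie near zero.

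The pathway to monolignols, from phenylalanine to the alcohols that become lignin, was represented by 16 genes. Of these, 8 were higher than each tissue at an adjusted p below 0.05 in edgeR, beside 0.903% of all genes tested. Against the mean 12 (75%) were called higher and 0 lower, beside 3.13% of all genes called higher, at a list median of 2.85 on the log2 scale. The count was 0 without vascular bundle replicate 1, 3 without vascular bundle replicate 2 and 3 or 4 without a pith library. PAL1, the entry enzyme phenylalanine ammonia-lyase, reached 2192 and 1823 CPM in the bundle, 186 and 525 in the cap and 67.0 and 79.1 in the pith (log2 fold change 3.64, SE 0.39, edgeR adjusted p = 0.0022). PAL2 and PAL4 were called with 2.96 and 3.88, but PAL3 reached 16.7 and 7.76 CPM in the bundle against 38.0 and 25.5 in the phloem cap, so that its values did not place it with its relatives. C4H, the hydroxylase of cinnamate, reached 970 and 937 CPM in the bundle, 101 and 254 in the cap and 67.7 and 97.9 in the pith. 4CL1, which makes the coenzyme A esters, reached 1355 and 1618, 167 and 374, and 31.7 and 63.1 CPM. CAD5, which forms the alcohols in the last step, reached 1066 and 1018, 221 and 374, and 46.5 and 62.1 CPM. In each of these the order was bundle, phloem cap, pith, with no overlap between the bundle and the rest.

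COMT1 and CSE departed from this order. COMT1, a methyltransferase of syringyl lignin, reached 681 and 628 CPM in the bundle, 78.7 and 314 in the cap and 556 and 744 in the pith. Pith and bundle overlapped, with a log2 fold change of 0.01 (SE 0.56) between them, and COMT1 was not called against the mean, except without phloem cap replicate 2 (1.53, edgeR adjusted p = 0.0088). CSE, an esterase of the pathway, reached 1119 and 1145, 262 and 421, and 382 and 481 CPM, with the pith above phloem cap replicate 1. Its log2 fold change of 1.56 (SE 0.26) missed the threshold with an edgeR adjusted p of 0.011, and passed without phloem cap replicate 2 (adjusted p = 0.0047). CCR1 had at most 0.881 CPM in any library, and 68.7% of its length is overlapped by an annotated gene on the other strand, AT1G05213, whose reads could not be assigned because strand was ignored. The level of CCR1 is therefore uncertain.

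Promoters of this pathway held a short run of letters known from MYB binding, a feature that the choice of genes had not used. AC elements, searched on either strand as ACCAACC, as its variant ACCTACC and as the run ACCAAAC, from 250 bases before to 50 bases after the gene start in RefSeq promoters of TAIR10.1, were present in 11 of 16 monolignol promoters (68.8%), as against 13.9% of 27443 protein-coding promoters. The share was 20% of 25 xylan promoters, 27.3% of 11 secondary wall cellulose promoters and 27.3% of 11 lignin polymerization promoters. It was 19.6% of 168 promoters of the genes higher than each tissue and 42.9% of 14 glucosinolate promoters. In the 250 bases before the start alone, it was 12% for xylan, 9.09% for secondary wall cellulose and 27.3% for lignin polymerization. There it was 50% for monolignol promoters and 11.6% for all promoters. A match is a run of letters and not a shown binding site. The 250 bases before the start are printed for 5 genes with a match there, so that its place can be seen, namely the monolignol genes 4CL2 (chr3:7457405-7457654), C3H1 (chr2:17060653-17060902) and HCT (chr5:19838236-19838485), the laccase gene LAC2 (chr2:12527804-12528053) and the xylan gene GUX1 (chr3:6422142-6422391), all on the minus strand and written 5′ to 3′ with the AC element in capitals, reading GTTTGGT where it lies on the opposite strand.
4CL2: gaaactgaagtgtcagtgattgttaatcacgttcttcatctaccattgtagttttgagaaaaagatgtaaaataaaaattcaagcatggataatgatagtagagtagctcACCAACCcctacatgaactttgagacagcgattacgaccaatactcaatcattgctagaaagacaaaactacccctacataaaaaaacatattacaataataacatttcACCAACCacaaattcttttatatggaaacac
C3H1: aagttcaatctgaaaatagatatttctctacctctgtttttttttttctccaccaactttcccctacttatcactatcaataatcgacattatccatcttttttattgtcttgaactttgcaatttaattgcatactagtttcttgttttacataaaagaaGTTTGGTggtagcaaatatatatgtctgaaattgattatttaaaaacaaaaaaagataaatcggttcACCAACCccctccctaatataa
HCT: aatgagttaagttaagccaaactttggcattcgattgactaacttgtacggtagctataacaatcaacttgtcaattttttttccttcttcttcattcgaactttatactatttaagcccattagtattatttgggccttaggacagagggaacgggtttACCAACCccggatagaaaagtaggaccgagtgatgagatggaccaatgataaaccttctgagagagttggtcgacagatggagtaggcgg
LAC2: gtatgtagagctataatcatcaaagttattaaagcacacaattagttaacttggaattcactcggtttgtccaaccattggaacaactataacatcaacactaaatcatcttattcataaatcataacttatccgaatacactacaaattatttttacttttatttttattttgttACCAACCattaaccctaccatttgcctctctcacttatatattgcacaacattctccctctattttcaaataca
GUX1: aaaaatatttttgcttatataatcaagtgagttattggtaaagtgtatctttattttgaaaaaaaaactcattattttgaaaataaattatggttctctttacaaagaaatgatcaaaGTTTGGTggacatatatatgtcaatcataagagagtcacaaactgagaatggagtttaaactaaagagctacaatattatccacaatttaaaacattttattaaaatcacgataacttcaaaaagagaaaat

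In 4CL2 the matches begin 140 and 31 bases before the start, in C3H1 89 and 22 bases before it, in HCT 90, in LAC2 74 and in GUX1 132 bases before it. All 5 genes were called higher in the bundle than the mean. 4CL2 reached 75.3 and 71.2 CPM there, 23.9 and 28.2 in the cap and 3.75 and 6.89 in the pith. C3H1, which hydroxylates the coumaroyl ester that HCT makes, reached 954 and 1111, 124 and 254, and 106 and 196 CPM. HCT itself reached 1908 and 1829, 473 and 811, and 171 and 258 CPM. The bundle was separate from the other libraries in all of these. C3H1 is overlapped over 20.3% of its length by AT2G09205 on the other strand.

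Of 11 lignin polymerization genes 9 were tested, and 4 (44.4%) were called higher than the mean and 0 lower, beside 3.13% of all genes called higher. The list median was 3.33 on the log2 scale, and all 4 called genes were laccases. With a single library left out, 0 to 7 were called, with 0 or 1 without a vascular bundle library and 0 without a pith library. LAC2 reached 281 and 354 CPM in the bundle, 10.3 and 35 in the cap and 10.6 and 11.8 in the pith, a log2 fold change of 4.31 (SE 0.43, edgeR adjusted p = 0.0020). LAC4, which with LAC17 is needed for lignification of the stem, reached 1462 and 1351, 96.0 and 369, and 49.5 and 61.8 CPM, and LAC12 reached 301 and 554, 84.0 and 170, and 11.5 and 17.0 CPM. LAC17 was called as well, at 113 and 152 CPM in the bundle with at most 20.07 elsewhere, but 91.9% of its length is overlapped by AT5G60022 on the other strand and its value is uncertain. Among the peroxidases PRX64 reached 289 and 388 CPM in the bundle, 101 and 434 in the cap and 122 and 112 in the pith. Phloem cap replicate 2 exceeded both bundle libraries, and PRX64 was not called (log2 fold change 0.93, SE 0.49), except without that replicate (1.64, edgeR adjusted p = 0.0074).

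Regulators of the secondary wall that were higher in the bundle included NAC, MYB and homeodomain proteins. Of 33 NAC, MYB and related genes 30 were tested. Both bundle libraries were above all others in 24 of these, beside 12.6% of all genes tested. Called higher than the mean were 14 (46.7%) and lower 0, beside 3.13% of all genes called higher, at a list median of 2.68 on the log2 scale. The count fell to 1 without either vascular bundle library and to 2 or 7 without pith replicate 1 or 2. NST3, a master switch of fibre walls with the levels given above, had a log2 fold change of 3.48 (SE 0.32, edgeR adjusted p = 0.0017). Its relative NST1 reached 23.3 and 32.7 CPM in the bundle, 4.01 and 17.4 in the cap and 5.29 and 4.73 in the pith, and was not called (1.93, SE 0.50, edgeR adjusted p = 0.047), although it was without phloem cap replicate 2 (2.64, adjusted p = 0.0039). Vessel regulators of the VND group had at most 12.6 CPM. VND3 was called, with 7.06 and 7.17 CPM in the bundle and 5.12 and 4.5 in the phloem cap, VND7 was not tested, and the other members did not pass.

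The largest log2 fold change of a regulator was that of a downstream MYB gene. MYB69 reached 13.9 and 11.1 CPM in the bundle, 1.06 and 2.99 in the cap and 0.0551 and 0.0526 in the pith, a log2 fold change of 5.16 (SE 0.54). MYB103, an activator of secondary wall genes, reached 64.1 and 134, 7.39 and 19.6, and 1.98 and 2.26 CPM (4.21, SE 0.44). MYB46 and MYB83, which stand above them in the cascade, had 1.75 and 4.08 at levels of at most 10.07 CPM and were not called. The homeodomain proteins that bind each other, KNAT7 and BLH6, were called together. KNAT7 reached 262 and 296 CPM in the bundle, 31.6 and 72.5 in the cap and 32.3 and 35.5 in the pith, and BLH6 reached 87.7 and 107, 23.9 and 35.5, and 14.3 and 16.8 CPM. NST3, MYB103, KNAT7 and BLH6 were also among the 170 genes higher than each tissue.

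Of 8 tracheary element genes, 3 were called higher than the mean and 0 lower, at a list median of 2.22 on the log2 scale, and 1 was called without either bundle library. The share called was 37.5%, beside 3.13% of all genes tested. XCP2, a cysteine protease that digests vessel contents, reached 2382 and 2312 CPM in the bundle, 47.9 and 113 in the cap and 130 and 90.3 in the pith. The cap and pith values overlapped and the bundle stood far above both, at log2 fold changes of 4.86 (SE 0.50) against the phloem cap and 4.41 (SE 0.48) against the pith. Its relative XCP1 reached 158 and 69.4 CPM in the bundle and at most 16.8 elsewhere. It missed the threshold with an edgeR adjusted p of 0.011. ACL5, which makes thermospermine and delays vessel death, reached 210 and 230, 111 and 346, and 17.6 and 20.3 CPM, so that bundle and phloem cap overlapped, and of the edgeR fits with this filter only those without phloem cap replicate 1 or 2 called it. Among 9 tested genes for the cytoskeleton of the secondary wall only MAP70-5 was called (11.1%, beside 3.13% of all genes tested). It reached 104 and 125 CPM in the bundle, 8.21 and 17.9 in the cap and 2.92 and 2.26 in the pith (4.30, SE 0.33). Its relative MAP70-1 had -0.06, at 93.7 and 101 CPM in the bundle and 99.2 and 123 in the pith.

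**Figure D4:**
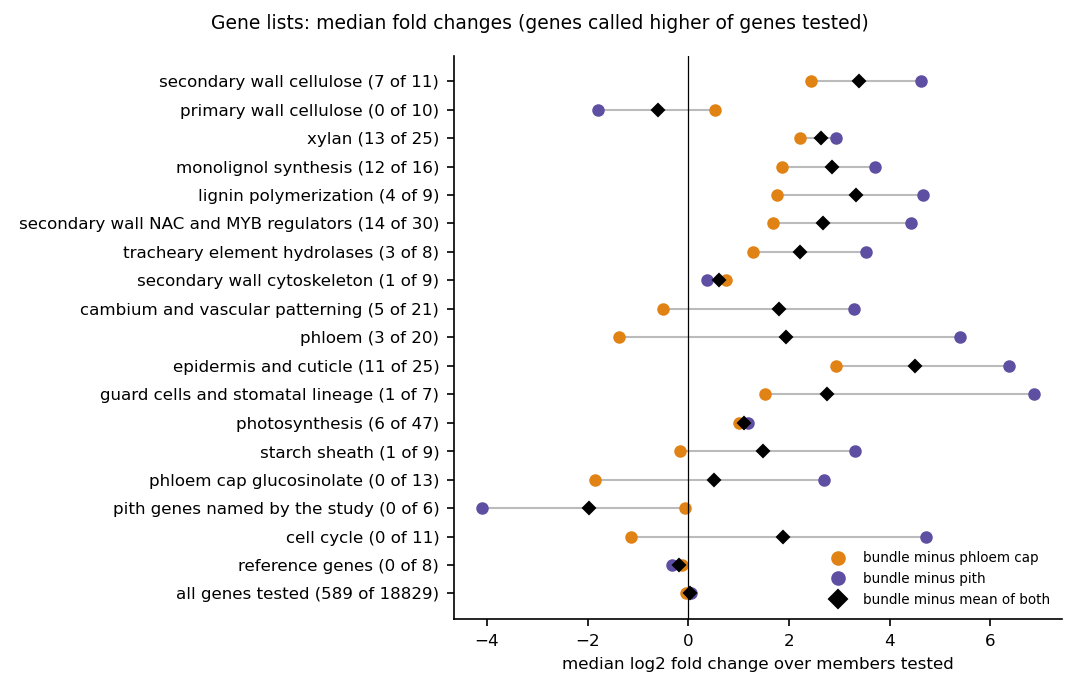
Median log2 fold changes over the tested genes of 18 lists and over all genes tested, with the vascular bundle compared with the phloem cap, the pith and the mean of both; the numbers beside each name are genes called higher than the mean of genes tested. Secondary wall and cuticle lists lie right of zero in all 3 comparisons, whereas the phloem, cambium and cell cycle lists have the phloem cap point left of zero.

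Cambium and phloem genes were called against the mean through the pith and not through the phloem cap. Of 21 cambium and patterning genes 17 were below the phloem cap in the fitted value, beside 10016 of all 18829 genes tested. The median log2 fold change was -0.50 against the cap, 3.30 against the pith and 1.79 against the mean. Against the mean 5 (23.8%) were called higher, beside 3.13% of all genes tested. The count was 0 without either bundle library and 1 or 7 without pith replicate 1 or 2. RUL1, a receptor kinase of the cambium, reached 60.1 and 49.7 CPM in the bundle, 99.7 and 128 in the cap and 0.441 and 1.26 in the pith, and PXY, the receptor that maintains cambium cells, 324 and 280, 483 and 369, and 574 and 528 CPM. WOX4, which acts downstream of PXY, reached 14.7 and 10.7, 25.8 and 30.004, and 0.0551 and 0.526 CPM. The phloem cap lay above the bundle in all of these, WOX4 was not called unless pith replicate 2 was left out, the count filter relaxed or DESeq2 used, and PXY, at -0.68 (SE 0.25), was not called.

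All 20 phloem genes were lower in the bundle than in the phloem cap in the fitted value, with a median of -1.37. Among all 18829 genes tested, 10016 were lower by that measure. Of the phloem genes 15 were called higher than the pith, beside 9.4% of all genes tested. The share called higher than the mean was 15%, beside 3.13% of all genes tested. Against the mean 3 were called, SEOR1, SUC2 and BAM3, with 0 to 3 when single libraries were left out, and the list median of 1.94 was 1.80 when genes at 0 counts in the pith were set to their bound. SUC2, the sucrose transporter of companion cells, reached 936 and 633 CPM in the bundle, 1426 and 924 in the cap and 42.3 and 53.3 in the pith. SEOR1, a filament protein of sieve elements, reached 324 and 252 CPM in the cap and 1.49 and 1.89 in the pith beside the bundle levels given above, and BAM3, a receptor of the early phloem, 128 and 78.2, 314 and 229, and 3.91 and 3.10 CPM. APL, which drives phloem identity, reached 19.5 and 8.40, 46.7 and 53.3, and 0.0551 and 0.368 CPM and was not called. None of these levels marks the bundle against both tissues.

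Cuticle genes had larger median differences than the wall genes. Of 28 epidermis and cuticle genes 25 were tested. Against the mean 11 (44%) were called higher and 1 lower, beside 3.13% and 0.186% of all genes tested. The median log2 fold change was 4.51, or 4.33 with genes at 0 in the pith set to their bound, and it was 2.94 against the phloem cap and 6.36 against the pith. The count of higher genes was 1 or 0 without vascular bundle replicate 1 or 2, 3 without either pith library and 15 without either phloem cap library. CER1, which makes the alkanes of stem wax, reached 206 and 216 CPM in the bundle, 6.28 and 33 in the cap and 2.09 and 2.26 in the pith (5.01, SE 0.56, edgeR adjusted p = 0.0028). MAH1, which oxidizes these alkanes, reached 376 and 535, 7.73 and 63.2, and 5.29 and 6.31 CPM. KCS1, an elongase of very long fatty acids, reached 167 and 214, 5.80 and 24.0, and 0.881 and 3 CPM. Phloem cap replicate 2 was several times above replicate 1 in each, and the bundle was above both. CER6, the main elongase of wax precursors, reached 11.0 and 107 CPM in the cap and 1.71 and 8.20 in the pith, and its log2 fold change of 4.62 (SE 0.83) missed the threshold with an edgeR adjusted p of 0.015, but passed it without phloem cap replicate 1 (adjusted p = 0.0079) or replicate 2 (adjusted p = 0.0041).

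ATML1, a homeodomain protein that specifies epidermis, reached 28.9 and 36.0 CPM in the bundle, 0.387 and 4.5 in the cap and 0.110 and 0.421 in the pith, and was called at 5.30 (SE 0.79). The letters of the L1 box bound by this protein family, TAAATGCA or TAAATGTA on either strand, were in 17.9% of 28 promoters of this list and in 5.1% of all promoters, a motif added after the data were seen. GPAT6, an acyltransferase of cutin synthesis, was the gene called lower, with 0.568 and 1.45 CPM in the bundle, 1.16 and 1.56 in the cap and 40.7 and 75.1 in the pith (-3.12, SE 0.50). Its relative GPAT4 was called higher with 4.97 (SE 0.60), at 8.62 and 11.3 CPM in the bundle. LTP1, often used as an epidermis marker, was at 0.521 and 0.427 CPM in the bundle and was not called.

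Of 7 tested guard cell genes only BLUS1, a kinase of blue light signalling in guard cells, was called, and it was not called without a bundle or a pith library. It reached 7.2 and 3.5 CPM in the bundle, 0 and 0.168 in the cap and 0 in both pith libraries, which makes it at least 66.3-fold higher than the pith when the pith is set to a limit of 3 counts over both libraries. The share called was 14.3%, beside 3.13% of all genes tested. The 7 guard cell genes did not all go the same way. In the fitted value 4 were above the phloem cap and 3 below it, and 6 were above the pith. Their summed levels were 69.0 and 40.7 CPM in the bundle, 121 and 57.7 in the cap and 40.9 and 28.3 in the pith. Genes that define the stomatal lineage, SPCH, MUTE and TMM, did not pass the count filter. The epidermis genes bear on the outline of the cut area noted above, and the part of epidermal cells in the bundle libraries was not tested.

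Photosynthesis genes had smaller median differences than the wall genes. Of 48 genes 47 were tested, and 6 (12.8%) were called higher than the mean and 0 lower, beside 3.13% of all genes called higher. DESeq2 called 22 higher, and edgeR without adjustment, at p under 0.05 and over 2-fold, gave 25. The median log2 fold change was 1.11, with 1.003 against the phloem cap and 1.19 against the pith. All 47 were above the phloem cap in the fitted value, beside 8807 of all 18829 genes tested. Above the pith were 46, beside 9792 of all genes. Both bundle libraries exceeded the other 4 in 41, beside 12.6% of all genes tested. Between 1 and 12 genes were called with single libraries left out. CA1, a carbonic anhydrase of the chloroplast, stood out with 593 and 661 CPM in the bundle, 57.2 and 90.2 in the cap and 9.86 and 3.68 in the pith (4.81, SE 0.39, edgeR adjusted p = 0.0017). GAPB, an enzyme of the Calvin cycle, reached 685 and 596, 188 and 233, and 108 and 107 CPM and was called at 2.09 (SE 0.22). PSBR, a photosystem II subunit, reached 5712 and 5014, 2132 and 2248, and 2369 and 2306 CPM, with an adjusted p of 0.015. These groups were separate, but the difference was 1.25 on the log2 scale. Of the other called genes LHCB1.1, LHCB1.4 and RBCS1B have near-identical copies, with 20.5%, 13.7% and 12% of their 50-base windows repeated elsewhere, so their values are uncertain.

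The remaining lists each gave at most 1 edgeR call against the mean. Of 9 starch sheath genes only SHR was called (11.1%, beside 3.13% of all genes tested), while DESeq2 called 6 higher. The list median was 1.48 against the mean, -0.17 against the cap and 3.30 against the pith. Against the pith 6 were called higher, beside 9.4% of all genes tested. SHR reached 190 and 172 CPM in the bundle, 228 and 179 in the cap and 4.68 and 7.73 in the pith. SCR, which marks the sheath, reached 8.72 and 10.6, 3.43 and 5.39, and 19.9 and 26.8 CPM. All 13 tested glucosinolate genes were below the phloem cap in the fitted value, beside 10016 of all 18829 genes tested. Their median was -1.86. GSTU20, of glucosinolate synthesis, reached 787 and 648 CPM in the bundle, 1920 and 1855 in the cap and 56.0 and 37.3 in the pith. Of the 13 glucosinolate genes 9 were called higher than the pith, beside 9.4% of all genes tested. Against the mean edgeR called 0 of these genes, 0 of 11 cell cycle genes and 0 of 8 reference genes in either direction, and DESeq2 called 3, 5 and 0 of them higher. Without adjustment, at p under 0.05 and over 2-fold, 3, 7 and 0 were higher and 0 lower. The 11 cell cycle genes were all below the phloem cap, with a median of -1.13, and the reference genes had a median of -0.19 against the mean. All 6 genes that the study names for the pith were called lower in the bundle than in the pith, beside 3.84% of all genes tested. The study took ANAC074 and AT2G38380 as known pith genes from earlier work. It named the others on these samples, so the direction of those is not independent evidence.

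**Figure D5:**
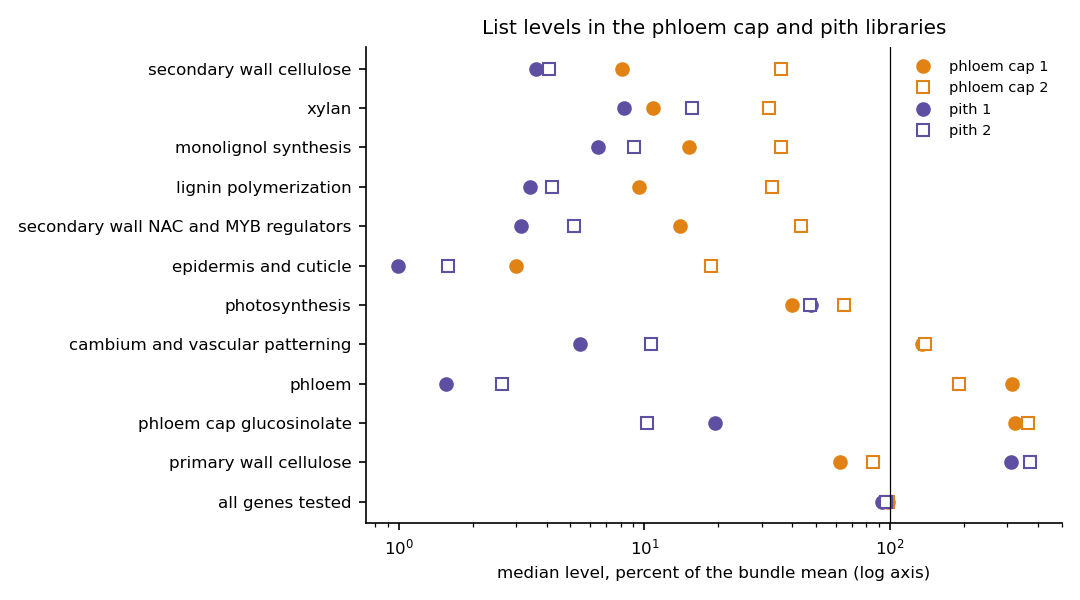
Median level of each list in the 4 other libraries as a percent of the mean of both vascular bundle libraries (log axis), over genes with a bundle mean of at least 1 CPM, with filled circles for replicate 1 and open squares for replicate 2. Wall, lignin and cuticle lists lie lower in phloem cap 1 than in phloem cap 2, and phloem and glucosinolate lists lie above 100 in both.

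Median levels in the phloem cap differed between its replicates for several of the lists. Secondary wall cellulose genes had a median level of 8.08% of the bundle mean in phloem cap replicate 1 and 35.9% in replicate 2, and 3.63% and 4.09% in the pith. Monolignol genes had 15.2% and 35.9% in the phloem cap, epidermis genes 3.01% and 18.7%, and regulators 13.9% and 43.6%. Phloem genes went the other way with 314% and 191%, whereas all genes tested had 98.5% and 98.0%. Secondary wall cytoskeleton genes had 50.3% and 55.1%. The cellulose, monolignol, regulator and epidermis lists were thus nearer to the bundle in phloem cap replicate 2, and what the cut area of this replicate contained was not tested.

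Most of the 170 genes higher than each tissue lay outside the lists, 139 of them, and those named here were chosen in part after their values were seen. Genes of methyl group supply, on which the methylation of monolignols draws, were among them. SAM1, an S-adenosylmethionine synthetase, reached 2758 and 1923 CPM in the bundle, 444 and 807 in the cap and 287 and 234 in the pith (2.54, SE 0.31, edgeR adjusted p = 0.0033). MTHFR2, which reduces methylenetetrahydrofolate, reached 2563 and 1921, 477 and 727, and 336 and 399 CPM (2.25, SE 0.27). Enzymes of the route to phenylalanine were present too. AT1G22410, annotated as a class-II DAHP synthetase at the entry of the shikimate pathway, reached 536 and 662, 84.1 and 179, and 60.3 and 73.3 CPM, and AT2G45300, a gene of the enolpyruvate transferase family, 155 and 210, 32.4 and 64.6, and 21.2 and 26.5 CPM. All 4 genes had both bundle libraries above the rest.

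By the rule on size of change, CAD9, a member of the cinnamyl alcohol dehydrogenase family, ranked first among genes without a tissue at 0. It reached 30.7 and 47.6 CPM in the bundle, 3.19 and 5.13 in the cap and 0.110 and 0.158 in the pith, a log2 fold change of 5.68 (SE 0.37, edgeR adjusted p = 0.0013). AT3G29630, a UDP-glycosyltransferase, reached 13.1 and 12.3 CPM in the bundle, 2.22 and 2.15 in the cap and 0 in both pith libraries, at least 158-fold above the pith. AT4G01985 had 57.3 and 7.76 CPM in the bundle, and thus differed as much between bundle libraries as others did between tissues. Transport genes included AAP6, an amino acid permease, with 131 and 110 CPM in the bundle, 15.3 and 21.5 in the cap and 6.28 and 5.73 in the pith, and PHO1, which loads phosphate into the xylem of roots, with 62.8 and 48.6 CPM in the bundle and at most 16.5 CPM elsewhere. Both had small errors, with log2 fold changes of 3.52 (SE 0.24) and 3.48 (SE 0.32). Subunits of the chloroplast NDH complex, NdhM with 18.6 and 20.6 CPM and PnsB1 with 50.02 and 71.7 CPM in the bundle, did not exceed 2.90 and 6.69 CPM in the other libraries. Further cuticle genes in this set were KCS3, LACS3, SHN3 and LTPG2, and ANL2, a relative of ATML1, reached 32.8 and 44.2, 3.19 and 6.86, and 0.606 and 0.946 CPM.

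Genes lower in the bundle fell into a group high in the pith and a smaller group high in the phloem cap. Of the 35 called lower than the mean, 30 were called lower than the pith and 9 had fitted values above the phloem cap. Both bundle libraries were below all others in 22, beside 7.86% of all genes tested, and the call itself favours such genes. SIP2, of a family linked to raffinose metabolism, is an example of the first group with 85.2 and 98.6 CPM in the bundle, 52.9 and 53.6 in the cap and 1419 and 2026 in the pith. The 9 genes lower than each tissue at an adjusted p below 0.05 were mostly high in phloem cap replicate 1. Which cells of the cut area their reads came from was not tested. AT3G14040, annotated as a pectin lyase-like protein, reached 0.663 and 0.939 CPM in the bundle, 315 and 78.9 in the cap and 5.95 and 3.36 in the pith, and DAF1, an F-box protein, 6.30 and 8.83, 1021 and 200.1, and 91.5 and 31.2 CPM. AT4G21895 had no count in the bundle and 15.5 and 11.6 CPM in the phloem cap, at least 201-fold higher than the bundle at a limit of 3 counts over both libraries. The phloem cap replicates differed several-fold in most of these genes, and ML1, a MEI2-like protein at 13.0 and 14.4, 40.6 and 31.1, and 37.1 and 32.5 CPM, was the gene in which both other tissues lay close together.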

How the data were processed

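The 6 RNA-seq libraries of laser-dissected stem tissue comprised 2 each from vascular bundle, phloem cap and pith. The authors aligned their single-end reads, 50 bases long and not trimmed, to TAIR10 with STAR 2.5.0a, kept unique alignments and deposited raw counts per Araport11 gene, introns included and strand ignored. Values of overlapping genes and of near-identical copies are therefore uncertain, and amplification means that counting limits cover counting error only. The table lists 37051 genes, of which 13712 had no count, and 0 of its columns belong to other samples. From the counts, R 4.3.3 with edgeR 4.0.16 filtered genes with filterByExpr by tissue, scaled by TMM, and fitted all 6 libraries with glmQLFit (robust), testing with glmQLFTest. Errors (SE) were derived from the fold change and its F statistic, so they carry no information beyond the p-value. Thresholds and DESeq2's Wald test (version 1.42.0 here) follow the study. Replicates were no duplicates, with a chi-square per degree of freedom of 37.0 for the bundle pair, 118 for the cap pair and 66.1 for the pith pair. In simulated counts, the fit called 49 of 50 genes raised by 4 and 31 of 50 raised by 2 on the log2 scale. It called 39 and 17 of 50 lowered by as much, and 1 of 18629 unchanged genes. The simulation gave cap and pith the same mean, unlike the data, so these rates hold for that simpler setting only.

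The members and the 18 gene lists, holding 300 genes of which 285 were tested, were chosen with earlier results of these data known. List leave-outs, DESeq2 list counts and the L1 box were added after the data were seen. Named genes were the 3 most abundant of a list, genes with extreme changes among those differing from each tissue, study markers, called regulators and the 5 most abundant genes higher than each tissue, plus others chosen after their values were seen. Of 303 genes checked for place, 11 were overlapped over more than 50% of their length and 13 had more than 10% of their 50-base windows repeated elsewhere in the genome. Alternatives were other scalings, filters, tests and thresholds, cap and pith as 1 group, and each library left out.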

Additional observations from a re-analysis of the deposited data

How the results depend on the processing

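The count of genes higher than the mean of both tissues was 589 and the count lower was 35. DESeq2 gave 1544 and 481, all 589 among the former. Without a count filter beyond 1 count they were 1058 and 133, at an adjusted p below 0.05 they were 1632 and 348, under glmTreat they were 168 and 0, and with phloem cap and pith as 1 group of 4 they were 0 and 0, since differences between those tissues then enter the spread. DESeq2 size factors, library totals and a filter of 50 counts gave 575, 605 and 595 higher genes. Leave-one-out fits ranged from 45 to 634 higher and from 0 to 86 lower genes. The counts of genes higher or lower than each tissue, 0 and 0, became 355 and 25 with DESeq2, 102 and 1 without the filter and 170 and 9 at 0.05, with ranges of 0 to 69 and 0 to 9 over leave-one-out fits. Of 69 genes followed, 59 kept their side of the threshold in DESeq2, 68 under either other scaling and 32 without either bundle library. With phloem cap and pith as 1 group, SEOR1, BAM3 and RUL1 turned to log2 fold changes of -0.13, -0.41 and -0.063. Counting only the 250 bases before the start, AC elements were in 11.6% of all promoters and 50% of monolignol promoters, and the L1 box in 4.49% of all promoters and 7.14% of epidermis promoters. No paired analysis was run, because the labels do not say which libraries of the tissues shared plants or sections. The cause of these changes was otherwise not tested.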
